A study of Mus musculus with 17 samples.

Results

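The genes described here are 37 mouse genes of innate sensing, inflammasome assembly and lytic cell death: the Toll-like receptors with their co-receptors and adaptors, the interleukin-1 receptor-associated kinases, the inflammasome sensors with caspase-1 and its partners, the NOD receptors, and the necroptosis kinase Ripk3 with its effector Mlkl. They are given by name, and all 37 were found once each among the 52545 genes of the table of normalized counts. All 37 passed the filter on low values, which asked for 10 or more in 5 of the 17 libraries. In 32 of them every library stood at 10 or more, and the other 5 were under 10 in at least 1 regular diet library.

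Toll-like receptors bind microbial lipids, proteins and nucleic acids at the cell surface or in endosomes and signal through the adaptors MyD88 and TRIF to NF-kappaB and interferon regulatory factors. Inflammasome sensors recognise danger in the cytosol and, through the adaptor ASC, activate caspase-1, which matures interleukin-1beta and interleukin-18 and cleaves gasdermin D into a membrane pore. Necroptosis is a separate lytic death in which RIPK3 phosphorylates MLKL. In the liver, Kupffer cells and recruited macrophages carry much of this sensing machinery and meet gut products arriving in portal blood, and hepatocytes express parts of it.

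Total RNA was taken from non-tumorous liver, and all mice were C57BL/6J males, 32 weeks old. There were 3 groups: 5 mice had regular diet and no treatment, 6 mice (vehicle) had 1 dose of DEN at 100 mg/kg in week 1, CDA-HFD and PBS, and 6 mice (antibody) had the same DEN and CDA-HFD with CLDN1 mAb, an antibody to the tight junction protein claudin-1, at 500 µg. PBS and antibody were given into the peritoneum 1 time a week for 16 weeks. DEN (diethylnitrosamine) is a liver carcinogen, and CDA-HFD is a high-fat diet without choline and with defined amino acids that produces steatohepatitis. DEN, diet and injections all separate regular diet from the other groups, so their parts in a difference cannot be told apart. The regular diet libraries carry the code numbers 31 to 35 and no other group does, whereas vehicle and antibody each have 3 libraries coded 25 to 30 and 3 coded 36 to 42.

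The spacing of low values put the depth at 27.7 to 59.5 M fragments per library. The deposited totals were 48.2 to 74.6 M in regular diet, 29.7 to 42.1 M in vehicle and 35.4 to 42.8 M in antibody mice. Regular diet mouse 1 had the highest total and 5 of the 11 single values described in the closing section. Albumin was listed at 0 in all 17 libraries, so it gives no check of the tissue. The other 7 hepatocyte markers summed to 1.47 to 3.29 M in regular diet, 0.3 to 1.09 M in vehicle and 0.712 to 1.21 M in antibody mice.

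Values were compared with limma on log2(value + 1), all 17 libraries in 1 fit, and p-values were adjusted over the 18624 genes tested by the Benjamini-Hochberg method, with a threshold of 0.05. Differences below are on the log2 scale ± standard error (SE), and a fold is 2 to the power of that difference. The added 1 pulls folds of low genes toward 1, but a single mouse near 0 can enlarge them, as for Tlr8. In vehicle against regular diet, 26 of the 37 members rose, 2 fell and 9 did not pass. Over all genes tested, 50.5% passed, 29.8% upward and 20.7% downward. The members' median log2 difference was 1.66, beside 0.04 for all genes. The 2 groups did not overlap for 18 members that were higher in vehicle and 1 that was lower, against 19.1% and 10.5% of all genes. In antibody against regular diet, 23 members rose, 3 fell and 11 did not pass, where 38.9% of all genes passed (24.8% upward, 14.1% downward). The median was 1.32 beside 0.01 for all genes. The 2 groups did not overlap for 19 members higher in antibody mice and 1 lower, against 18.6% and 10.4% of all genes. Both comparisons use the same 5 regular diet libraries. In antibody against vehicle, 0 members passed, as did 0 of all genes tested.

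The scaling of the table bears on small differences. With every library scaled to the same total, the median of all genes moved from 0.04 to 0.65 in vehicle against regular diet and from 0.01 to 0.44 in antibody against regular diet, and 33 and 29 members were called higher and 1 and 1 lower. Over all genes, 50.3% were then higher and 6.80% lower in vehicle, and 37.9% and 4.46% in antibody mice. Under quantile normalization 22 and 17 members were called higher, with 23.9% of all genes higher in vehicle and 19.1% in antibody mice. Of the 18624 genes, 5223 and 3725 were then called lower. Without regular diet mouse 1 the counts were 27 higher and 4 lower for vehicle, beside 32.0% and 25.4% of all genes, and 25 and 4 for antibody, beside 27.6% and 20.9%.

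**Figure D1:**
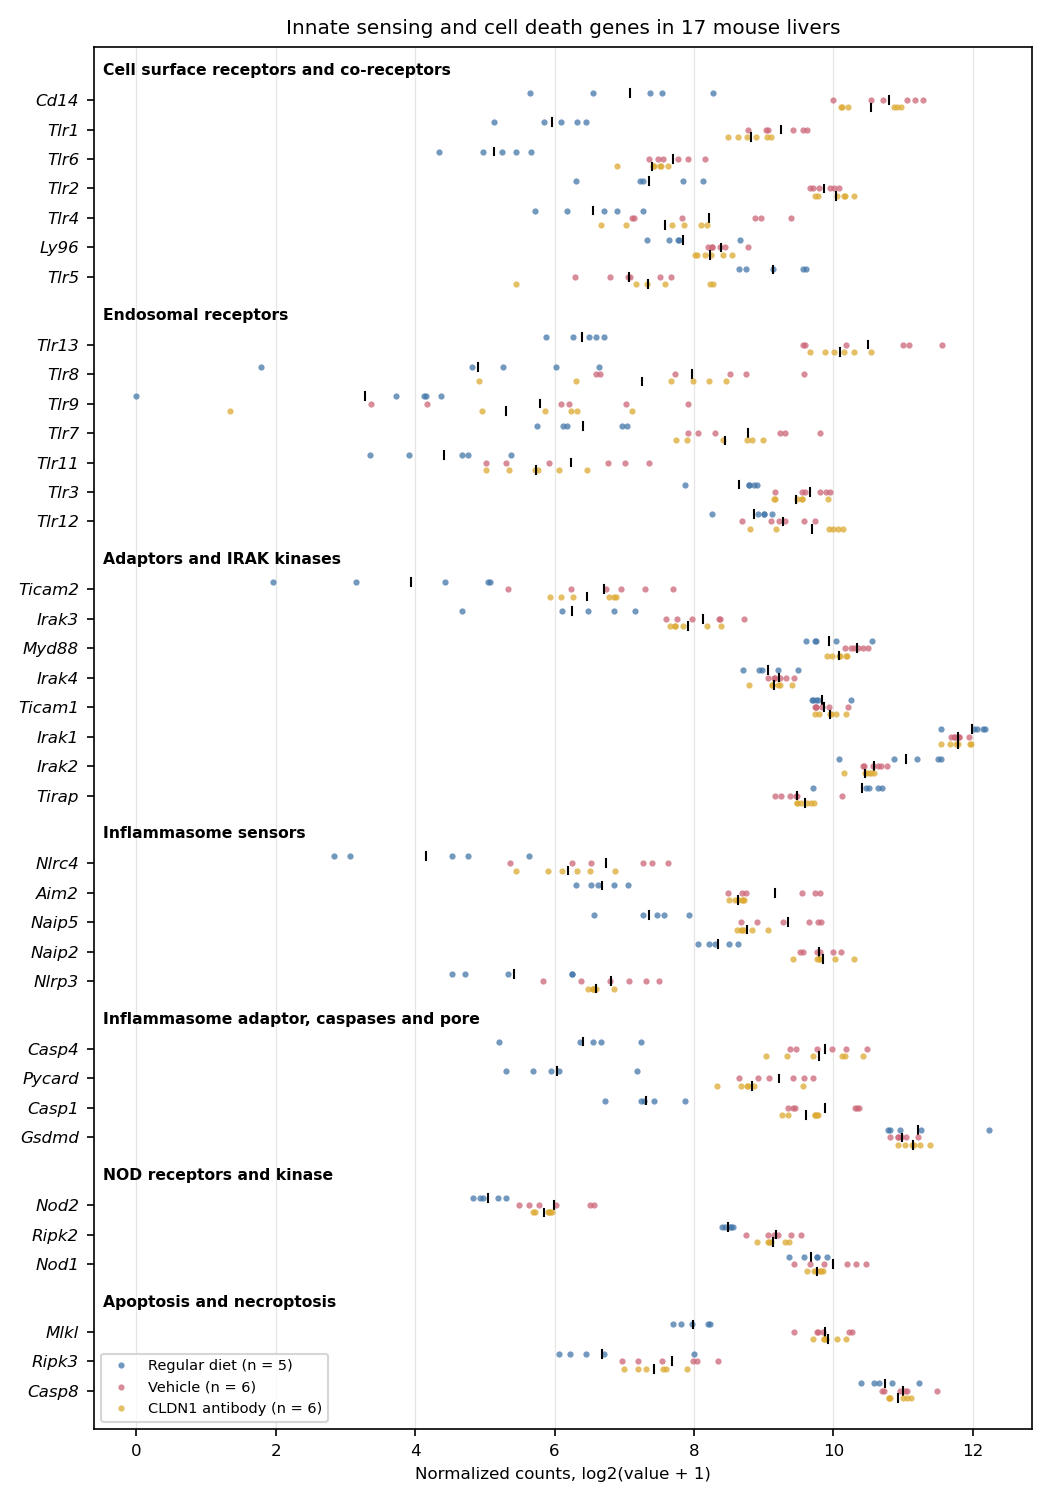
Normalized counts of the 37 genes in each library, as log2(value + 1), grouped by role; each point is 1 mouse, colours give the 3 groups (5 regular diet, 6 vehicle, 6 antibody) and black ticks are group means. Tlr13, Cd14 and Casp4 stand far apart between regular diet and both CDA-HFD groups, Tlr5 is lower in both, and Gsdmd, Irak1 and Ticam1 lie together.

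Macrophage transcripts moved the same way as most members. The 10 pan-macrophage markers summed to 5953 to 20189 in regular diet, 52140 to 146110 in vehicle and 70798 to 123890 in antibody mice, and 9 of 10 rose in vehicle against regular diet and 8 of 10 in antibody. The 5 leukocyte markers all rose in both, from sums of 1470 to 3599 in regular diet to 8790 to 30720 in vehicle and 11543 to 16301 in antibody mice. The 5 monocyte markers rose in both, while 5 of 7 markers of resident Kupffer cells fell in vehicle and 6 of 7 in antibody mice. Of the other lists, 5 of 7 tested neutrophil markers, 5 of 6 of conventional dendritic cells, 5 of 6 of T and NK cells, 4 of 5 of plasmacytoid dendritic cells, 2 of 5 of B cells, 4 of 6 of stellate cells and fibroblasts and 5 of 5 of cholangiocytes rose in vehicle mice, and 7 of 7 tested hepatocyte and 2 of 6 endothelial markers fell. In bulk liver, more cells of a type and more RNA per cell cannot be told apart, and the part of cell makeup in the differences below was not tested.

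Short stretches before the start sites of 4 of the members that rose are shown because each holds a letter match to a factor of myeloid or inflammatory transcription. RefSeq promoter windows (250 bases before to 50 after a start) matched 30 of the 37 members by symbol. The 4 motifs searched on both strands were the NF-kappaB consensus, GAGGAAGT (PU.1), the core of the interferon-stimulated response element and TGANTCA (AP-1). No match of one motif overlapped a match of another in the members' windows, but matches of 1 motif overlapped each other in Tlr2, Casp4 and Tlr6. The NF-kappaB consensus was in 5 of 30 members (16.7%; Casp4, Naip5, Nlrp3, Tlr2 and Tlr3) and in 5.14% of 27025 genes with a window. GAGGAAGT was in 5 members (16.7%; Aim2, Pycard, Tlr1, Tlr11 and Tlr9) against 3.69% of genes, the interferon-stimulated element core in 3 (10%; Myd88, Tlr11 and Tlr6) against 3.99%, and TGANTCA in 1 (3.33%; Tlr9) against 8.97%. A match is a description of letters and not a binding site. The 4 windows follow, from GRCm38.p6, 5′ to 3′ on the gene's strand, with matches in capitals. Those of Tlr2 (chr3:83841559-83841858, minus strand) and Casp4 (chr9:5308599-5308898, plus strand) carry the NF-kappaB consensus. Those of Tlr1 (chr5:64933509-64933808, minus strand) and Aim2 (chr1:173420354-173420653, plus strand) carry GAGGAAGT.
Tlr2: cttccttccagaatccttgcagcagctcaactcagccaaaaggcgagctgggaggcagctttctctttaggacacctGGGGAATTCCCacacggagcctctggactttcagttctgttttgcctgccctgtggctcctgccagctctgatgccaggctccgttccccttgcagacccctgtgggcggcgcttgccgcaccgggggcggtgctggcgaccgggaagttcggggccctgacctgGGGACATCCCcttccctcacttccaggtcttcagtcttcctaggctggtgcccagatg
Casp4: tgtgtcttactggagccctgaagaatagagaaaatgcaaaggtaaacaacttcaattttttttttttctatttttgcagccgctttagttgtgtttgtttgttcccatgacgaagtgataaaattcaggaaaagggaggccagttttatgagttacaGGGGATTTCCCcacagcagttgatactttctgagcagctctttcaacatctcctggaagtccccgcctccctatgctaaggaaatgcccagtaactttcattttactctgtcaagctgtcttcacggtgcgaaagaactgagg
Tlr1: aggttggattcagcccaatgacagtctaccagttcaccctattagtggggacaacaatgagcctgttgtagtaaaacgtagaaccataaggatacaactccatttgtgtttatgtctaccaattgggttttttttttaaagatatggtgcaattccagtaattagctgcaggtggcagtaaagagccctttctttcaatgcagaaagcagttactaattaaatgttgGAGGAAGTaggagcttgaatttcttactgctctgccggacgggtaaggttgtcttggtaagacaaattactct
Aim2: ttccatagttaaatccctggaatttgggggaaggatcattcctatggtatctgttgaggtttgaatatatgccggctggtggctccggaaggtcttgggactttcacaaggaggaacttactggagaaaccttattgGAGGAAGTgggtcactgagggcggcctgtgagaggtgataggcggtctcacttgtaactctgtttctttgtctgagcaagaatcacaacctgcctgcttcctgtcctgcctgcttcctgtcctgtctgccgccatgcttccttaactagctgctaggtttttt
The Tlr2 window holds an overlapping pair of NF-kappaB matches 173 and 172 bases before the start and another 8 bases before it. In Casp4 an overlapping pair lies 93 and 92 bases before the start. The PU.1 letters begin 23 bases before the start of Tlr1 and 113 bases before that of Aim2.

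Of the 7 cell surface receptors and co-receptors, 6 rose in vehicle livers, led by the lipopolysaccharide co-receptor Cd14 and by Tlr1, and Tlr5 fell. In antibody livers 4 rose and Tlr5 fell. Cd14 hands lipopolysaccharide to TLR4 and MD-2. Its values were 307, 93.2, 49.01, 165 and 185 in regular diet mice 1 to 5, 1017 to 2503 (median 1908) in vehicle and 1108 to 2008 (median 1529) in antibody mice. Every CDA-HFD value was above every regular diet value, and the difference was 3.72 ± 0.37 (13.2-fold, adjusted p = 2.48e-07) in vehicle and 3.46 ± 0.37 (10.995-fold, adjusted p = 8.47e-07) in antibody mice. Tlr1, which pairs with TLR2 to bind triacylated lipopeptides, stood at 56.5, 78.7, 34.1, 86.7 and 67.2 in regular diet, 436 to 786 (median 607) in vehicle and 359 to 550.05 (median 454) in antibody mice. The groups again did not overlap with regular diet, and the difference was 3.28 ± 0.23 (9.69-fold, adjusted p = 5.32e-09) in vehicle and 2.85 ± 0.23 (7.23-fold, adjusted p = 3.41e-08) in antibody mice. Tlr2 itself stood at 280.1, 154, 77.9, 149 and 229 in regular diet, 811 to 1079.9 (median 936) in vehicle and 855 to 1256 (median 1102) in antibody mice. It varied little within vehicle, with a highest value 1.33 times the lowest, and rose by 2.51 ± 0.24 (5.70-fold, adjusted p = 1.75e-07) in vehicle and 2.68 ± 0.24 (6.39-fold, adjusted p = 1.24e-07) in antibody mice. Tlr6, the partner of TLR2 for diacylated lipopeptides and a neighbour of Tlr1 on chromosome 5 (18.5 kb apart), had 36.8, 49.9, 19.3, 30.3 and 42.8 in regular diet, 162 to 284 (median 202) in vehicle and 118 to 198 (median 177) in antibody mice. It did not overlap with regular diet either and rose by 2.57 ± 0.23 (5.94-fold, adjusted p = 1.06e-07) and 2.27 ± 0.23 (4.82-fold, adjusted p = 6.45e-07).

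Tlr4, the lipopolysaccharide receptor, had a smaller fitted difference than its co-receptor Cd14. It stood at 51.6, 154, 71.8, 103 and 118 in regular diet, 137 to 668 (median 347) in vehicle and 101 to 289.8 (median 218) in antibody mice, and the low end of both CDA-HFD groups overlapped with regular diet. The vehicle difference was 1.66 ± 0.43 (3.17-fold, adjusted p = 0.00365), and the antibody difference was 1.03 ± 0.43 (adjusted p = 0.0659), which did not pass, though it did under 4 of 21 alternatives. Ly96 encodes MD-2, the lipid-binding partner of TLR4. Its values were 403, 220.5, 159, 217 and 199 in regular diet, where mouse 1 was highest, 295 to 439.5 (median 318) in vehicle and 258 to 372 (median 293) in antibody mice. The vehicle difference was 0.55 ± 0.20 (1.46-fold, adjusted p = 0.0298), a call kept under 12 of 21 alternatives and turned to -0.0488 by quantile normalization. The antibody difference of 0.40 ± 0.20 (adjusted p = 0.126) did not pass, and with equal totals it did, at 0.84.

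Tlr5, the flagellin receptor (ENSMUSG00000079164, chr1:182954788-182976044, plus strand), ran opposite to most of its family. Regular diet mice had 398, 562, 782, 429 and 753, vehicle mice 77.6 to 202 (median 133) and antibody mice 42.8 to 309 (median 176), and neither CDA-HFD group reached the lowest regular diet value. It fell by 2.07 ± 0.41 on the log2 scale in vehicle (4.20-fold, adjusted p = 0.000378) and by 1.80 ± 0.41 in antibody mice (3.48-fold, adjusted p = 0.00182).

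All 7 endosomal receptors had differences above 0 in both CDA-HFD groups, and 5 of 7 passed in vehicle and 6 of 7 in antibody mice. Of these, 5 bind nucleic acids, and Tlr11 and Tlr12 bind profilin of protozoan parasites in mice. Tlr13, a sensor of bacterial ribosomal RNA found in mice, had the largest rise of the 37 members in both comparisons. The gene (ENSMUSG00000033777) lies at chrX:106143204-106160493 on the plus strand (GRCm38, GENCODE annotation). It stood at 76.2, 95.8, 57.8, 89.4 and 104 in regular diet, 757 to 3004 (median 1607) in vehicle and 813 to 1496 (median 1082) in antibody mice. The lowest CDA-HFD value (757) lay above the highest regular diet value (104), and the difference was 4.11 ± 0.32 (17.2-fold, adjusted p = 1.57e-08) in vehicle and 3.70 ± 0.32 (13.007-fold, adjusted p = 7.15e-08) in antibody mice. Tlr7 and Tlr8 bind single-stranded RNA and lie 40.6 kb apart on chromosome X. Tlr7 had 71.2, 131, 52.5, 68.8 and 124 in regular diet, 241 to 895 (median 458) in vehicle and 214 to 508 (median 387) in antibody mice, without overlap, and rose by 2.36 ± 0.36 (5.14-fold, adjusted p = 3.08e-05) and 2.03 ± 0.36 (4.09-fold, adjusted p = 0.0002). Tlr8 had 2.46, 98.4, 27.1, 37.2 and 64.2 in regular diet, 95.9 to 764 (median 288) in vehicle and 29.1 to 351 (median 227) in antibody mice. The value in regular diet mouse 1 corresponds to 1 fragment. Tlr8 rose by 3.07 ± 0.81 (8.37-fold, adjusted p = 0.00423) and 2.35 ± 0.81 (5.11-fold, adjusted p = 0.0281), and its groups overlapped. Without that mouse the vehicle difference was 4.88-fold (adjusted p = 0.0102) and the antibody difference 2.98-fold (adjusted p = 0.0713). The antibody call was kept under 14 of 21 alternatives.

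Tlr3, which binds double-stranded RNA, had the smallest rise of the nucleic acid receptors that passed. Its values were 233, 479, 442, 442 and 466 in regular diet, 575 to 993 (median 835) in vehicle and 567 to 966 (median 729) in antibody mice, without overlap, and it rose by 1.02 ± 0.20 (2.02-fold, adjusted p = 0.000424) and 0.82 ± 0.20 (1.77-fold, adjusted p = 0.00348). Tlr9, the receptor of unmethylated CpG DNA, had the lowest values of these 5. It stood at 0, 19.7, 12.3, 16.5 and 16.8 in regular diet, 9.35 to 242 (median 69.9) in vehicle and 1.53 to 138 (median 66.1) in antibody mice, with overlap. The vehicle difference was 2.52 ± 1.03 (adjusted p = 0.0501) and the antibody difference 2.03 ± 1.03 (adjusted p = 0.131), and neither passed. Under 7 of 21 alternatives the vehicle difference did, and under 2 the antibody difference did. With the replicate block both passed, at 2.13 (adjusted p = 0.00368) and 1.64 (adjusted p = 0.0219).

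Of the profilin receptors, Tlr11 was low, at 24.6, 40.7, 14.00, 26.1 and 9.17 in regular diet, 31.3 to 163 (median 83.9) in vehicle and 31.5 to 87.4 (median 52.6) in antibody mice, with overlap. Its differences were 1.82 ± 0.45 (3.52-fold, adjusted p = 0.00252) and 1.32 ± 0.45 (2.49-fold, adjusted p = 0.0264). The antibody call was kept under 15 of 21 alternatives and was lost with the replicate block (1.13, adjusted p = 0.0682). Tlr12 stood at 484, 513, 511, 307 and 558 in regular diet, 411 to 853 (median 615) in vehicle and 445 to 1131 (median 1004) in antibody mice. The antibody difference passed, at 0.83 ± 0.25 (1.77-fold, adjusted p = 0.015), but not under quantile normalization (0.59) or without regular diet mouse 4 (0.68). The vehicle difference was 0.41 ± 0.25 (adjusted p = 0.189) and did not pass, but with equal totals it did, at 1.03. Antibody minus vehicle was 0.42 (95% interval -0.09 to 0.92, adjusted p = 0.677 by limma).

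**Figure D2:**
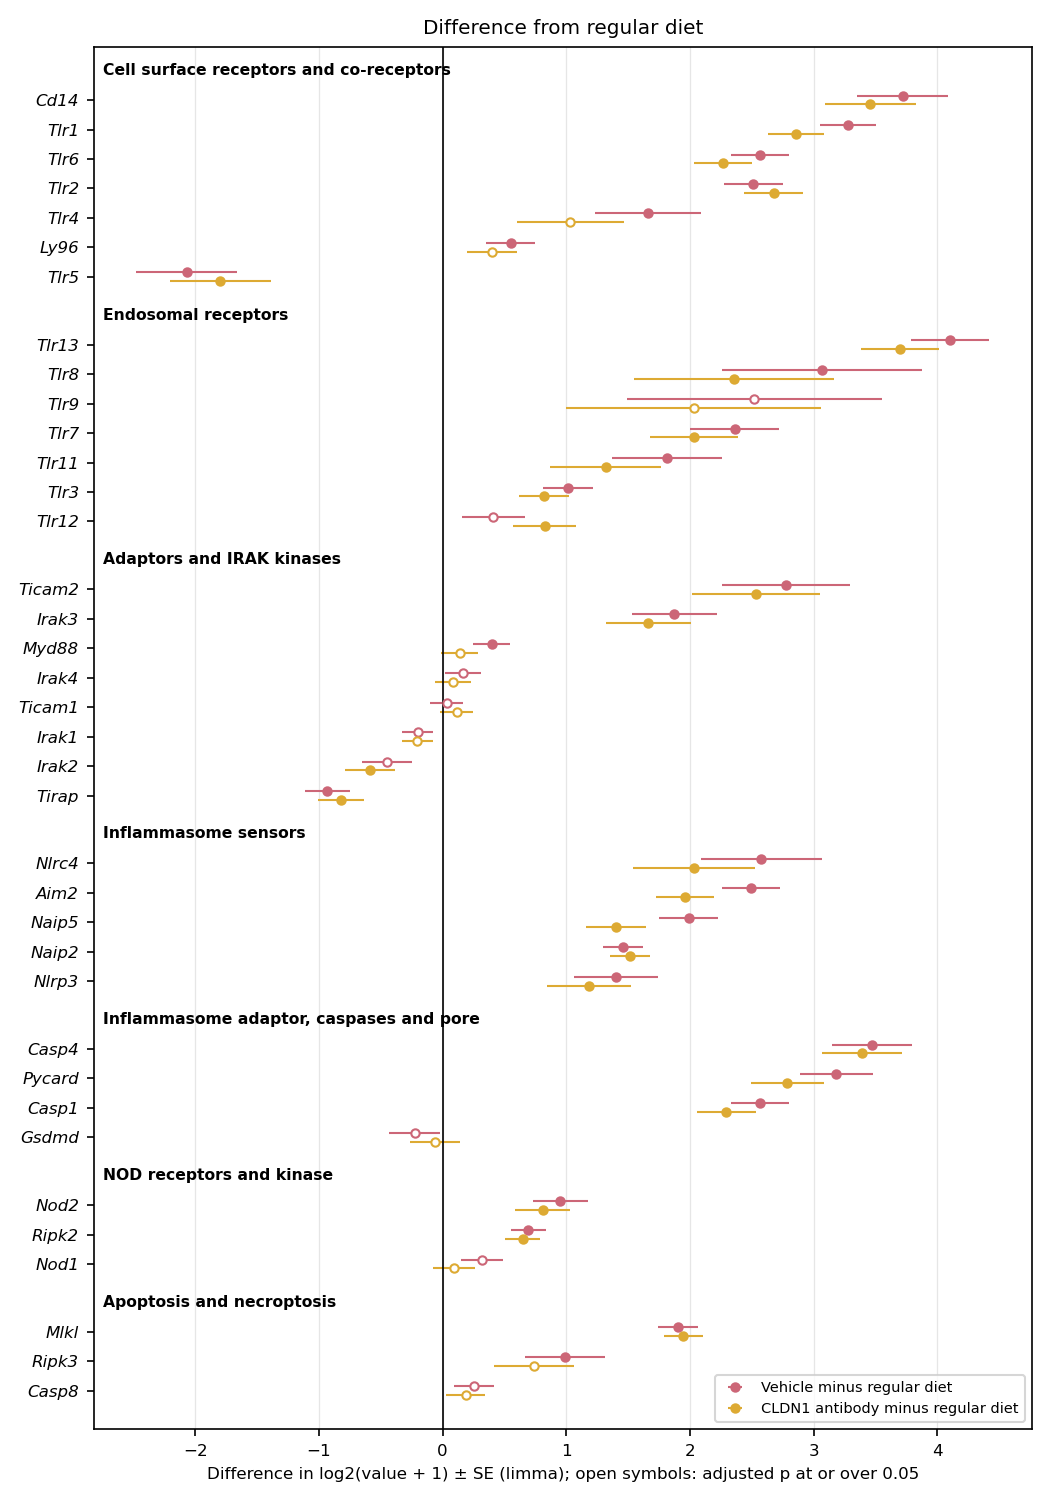
Difference of each gene from regular diet in log2(value + 1), with its SE from limma, for vehicle (6 mice) and antibody (6 mice) against the same 5 regular diet mice; filled symbols passed an adjusted p of 0.05. Tlr13 lies furthest right (4.11 and 3.70) and Tlr5 furthest left (-2.07 and -1.80), and the adaptors sit mostly near 0.

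The adaptors and IRAK kinases, through which the receptors signal, sat closer to 0 than the receptors: 3 of 8 rose and 1 fell in vehicle, with a median of 0.10, and 2 rose and 2 fell in antibody mice, with a median of 0.10. Thus 50% of them passed in each group, beside 50.5% of all genes in vehicle and 38.9% in antibody mice. Myd88, the adaptor shared by most of the family, stood at 1503, 864, 779, 855 and 1046 in regular diet, 1150.3 to 1442 (median 1282) in vehicle and 959.6 to 1178 (median 1089) in antibody mice. Its vehicle difference was 0.40 ± 0.15 (1.32-fold, adjusted p = 0.0321), a call kept under 12 of 21 alternatives and lost with the replicate block (adjusted p = 0.0722). Its antibody difference was 0.14 ± 0.15 (adjusted p = 0.495), which did not pass, and with equal totals it did, at 0.58. Its exons overlap those of Acaa1a on the other strand by 290 bases, and use of strand in the counting is not given in the sources used here. Ticam1 (TRIF) did not pass, at 0.03 ± 0.13 (adjusted p = 0.855) in vehicle and 0.11 ± 0.13 (adjusted p = 0.539) in antibody mice. With equal totals it passed as higher in both, at 0.66 (adjusted p = 0.000132) and 0.55 (adjusted p = 0.000961). Ticam2 (TRAM), which links TLR4 to TRIF, was the adaptor with the largest rise. It stood at 2.90, 32.8, 7.88, 20.6 and 32.1 in regular diet, 39.5 to 207 (median 114) in vehicle and 60.4 to 117 (median 92.4) in antibody mice, without overlap, and rose by 2.78 ± 0.51 (6.85-fold, adjusted p = 0.000224) and 2.53 ± 0.51 (5.79-fold, adjusted p = 0.000737). It shares 838 exonic bases with Tmed7 on the same strand, so its level is uncertain.

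Tirap (MAL), which bridges TLR2 and TLR4 to MyD88, fell. Regular diet mice had 838, 1592, 1465, 1422 and 1669.7, with mouse 1 lowest. Vehicle mice had 570.02 to 1113 (median 686), where mouse 1 was highest and the next stood at 713, and antibody mice 714 to 844 (median 765). It fell by 0.93 ± 0.18 on the log2 scale in vehicle (1.91-fold, adjusted p = 0.000381) and by 0.82 ± 0.18 in antibody mice (1.77-fold, adjusted p = 0.00164). The overlap with regular diet came from regular diet mouse 1, together with vehicle mouse 1 and antibody mouse 6. With every library scaled to the same total neither call remained. Irak3 (IRAK-M), an inhibitor of the pathway expressed in macrophages, rose. It stood at 88.4, 68.2, 24.5, 114 and 142 in regular diet, 194 to 419 (median 289) in vehicle and 200.1 to 335 (median 219) in antibody mice, without overlap, by 1.87 ± 0.34 (3.67-fold, adjusted p = 0.000209) and 1.66 ± 0.34 (3.17-fold, adjusted p = 0.000872). Irak2, a family member that also lacks part of the usual catalytic site, stood at 1086, 1873, 2345, 2983 and 2893 in regular diet, 1374 to 1755 (median 1554) in vehicle and 1142 to 1534 (median 1436) in antibody mice. Its antibody difference of -0.59 ± 0.20 (adjusted p = 0.0277) passed as a fall under 14 of 21 alternatives and stood at -0.15 with equal totals, which did not pass. Its vehicle difference of -0.45 ± 0.20 (adjusted p = 0.0718) did not pass, with a value of 0.17 at equal totals. The kinases Irak1 and Irak4 did not pass: Irak1 was at -0.20 ± 0.13 (adjusted p = 0.193) in vehicle and -0.20 ± 0.13 (adjusted p = 0.216) in antibody mice, and Irak4 at 0.16 ± 0.15 (adjusted p = 0.371) and 0.08 ± 0.15 (adjusted p = 0.689). With equal totals Irak1 stood at 0.42 and 0.24, and Irak4 passed in vehicle, at 0.79. Without regular diet mouse 1, Irak1 (-0.31, adjusted p = 0.0117) and Irak2 (-0.69, adjusted p = 0.000319) were called lower in vehicle.

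All 5 inflammasome sensors rose in both CDA-HFD groups, each at least 2-fold. Nlrc4 and the NAIP proteins form the inflammasome for bacterial flagellin and secretion systems. Nlrc4 had the largest fitted rise and, of the 5, the lowest level per length. It stood at 7.37, 48.6, 6.13, 22.02 and 25.97 in regular diet, 40.3 to 196 (median 122) in vehicle and 42.8 to 116 (median 73.4) in antibody mice, with overlap, and rose by 2.58 ± 0.49 (5.97-fold, adjusted p = 0.000285) and 2.03 ± 0.49 (4.09-fold, adjusted p = 0.00304). Naip5, a flagellin receptor, had 93.4, 177, 153, 189 and 243 in regular diet, 406 to 902 (median 712) in vehicle and 392 to 532 (median 414) in antibody mice, without overlap with regular diet. It rose by 1.99 ± 0.24 (3.97-fold, adjusted p = 2.52e-06) and 1.40 ± 0.24 (2.64-fold, adjusted p = 0.000149). Naip2, which binds the rod protein of secretion systems, had 265, 395, 296, 315 and 361 in regular diet, 738 to 1108 (median 887) in vehicle and 684 to 1261 (median 895) in antibody mice, without overlap, and rose by 1.46 ± 0.16 (2.75-fold, adjusted p = 1.03e-06) and 1.51 ± 0.16 (2.86-fold, adjusted p = 9.72e-07). Naip2 and Naip5 lie 9.65 kb apart on chromosome 13 among near-identical copies, so the split of reads between them is uncertain.

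Aim2, a sensor of cytosolic double-stranded DNA, stood at 78.6, 133, 98.02, 90.8 and 115 in regular diet, 358 to 892 (median 591) in vehicle and 363 to 419 (median 403) in antibody mice. It did not overlap with regular diet and rose by 2.49 ± 0.23 (5.63-fold, adjusted p = 1.38e-07) and 1.96 ± 0.23 (3.89-fold, adjusted p = 3.1e-06). The antibody mice lay close together, while vehicle mice 3, 4 and 6 had 752, 892 and 851 and vehicle mice 1, 2 and 5 had 429, 358 and 412. Nlrp3, the sensor of crystals, potassium efflux and membrane damage, had the smallest rise of the 5 in both groups. It stood at 39.3, 74.8, 25.4, 22.02 and 74.9 in regular diet, 56.1 to 180.3 (median 122) in vehicle and 87.99 to 114 (median 93.1) in antibody mice, overlapping with regular diet in vehicle and not in antibody mice. It rose by 1.40 ± 0.34 (2.65-fold, adjusted p = 0.0023) and 1.18 ± 0.34 (2.27-fold, adjusted p = 0.0104). With quantile normalization the differences of 0.60 and 0.53 did not pass.

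Of the inflammasome adaptor, caspases and pore, 3 of 4 rose by at least 4-fold in both groups and Gsdmd did not pass in either. Casp4 (caspase-11 of the mouse) binds cytosolic lipopolysaccharide directly. It stood at 149.8, 101, 35.9, 81.2 and 93.2 in regular diet, 668 to 1433 (median 943) in vehicle and 523 to 1370.1 (median 978) in antibody mice, and its rise was 3.47 ± 0.32 (11.1-fold, adjusted p = 1.29e-07) in vehicle and 3.39 ± 0.32 (10.5-fold, adjusted p = 2.42e-07) in antibody mice, without overlap. Pycard, which encodes the adaptor ASC, had 145, 65.6, 38.5, 50.9 and 61.1 in regular diet, 399.8 to 832 (median 612) in vehicle and 322 to 759.96 (median 435) in antibody mice. Regular diet mouse 1 was the highest of its group and still under every CDA-HFD mouse, and the rise was 3.18 ± 0.29 (9.08-fold, adjusted p = 1.24e-07) and 2.79 ± 0.29 (6.91-fold, adjusted p = 8.18e-07). Casp1, the interleukin-1-converting caspase, lies 1.56 kb from Casp4 on chromosome 9. Its values were 233, 172, 105, 154 and 149.7 in regular diet, 651 to 1322 (median 988) in vehicle and 617 to 878 (median 851) in antibody mice, without overlap, and it rose by 2.57 ± 0.24 (5.93-fold, adjusted p = 1.11e-07) and 2.29 ± 0.24 (4.91-fold, adjusted p = 5.99e-07). Gsdmd, the pore protein that both caspases cleave, stood at 4835, 1982, 1763, 1799 and 2449 in regular diet, where mouse 1 was far above the others, 1791 to 2382 (median 1983) in vehicle and 1949 to 2671 (median 2268) in antibody mice. Its differences were -0.23 ± 0.20 (adjusted p = 0.373) and -0.06 ± 0.20 (adjusted p = 0.841), and with equal totals they were 0.40, which passed (adjusted p = 0.0401), and 0.38, which did not.

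Normalized counts per kilobase of exon give only a rough comparison of levels between genes. The length used was that of a gene's annotated exons, 3800 bases for Pycard and 5792 for Ticam2. It can exceed the length of the transcript made, and the level is then understated, by an amount that was not tested. Per kilobase, the mean of Gsdmd in regular diet was 1079, that of Irak1 872 and that of Casp8 605. Without regular diet mouse 1, Gsdmd stood at 841 and Irak1 at 932, so the order of these 2 rests on that mouse. Casp1 stood at 109, Pycard at 19.0 and Tlr13 at 19.7. In vehicle mice Cd14 was highest (1072), Gsdmd stood at 854 and Casp1 at 661, and Tlr13 at 384. In antibody mice Gsdmd was at 959, Cd14 at 887 and Casp1 at 525. The lowest members in regular diet on this scale were Ticam2 (3.33), Tlr9 (3.75) and Nlrc4 (4.58), an order that rests on the same exon lengths.

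Among the NOD receptors, which bind peptidoglycan fragments, Nod2 rose and Nod1 did not pass. Nod2 was low, at 29.5, 35.4, 38.5, 27.5 and 30.6 in regular diet, 43.9 to 93.6 (median 58.9) in vehicle and 50.7 to 61.2 (median 59.3) in antibody mice, without overlap, and rose by 0.95 ± 0.22 (1.93-fold, adjusted p = 0.00174) and 0.81 ± 0.22 (1.75-fold, adjusted p = 0.00794). Nod1 stood at 958, 870.1, 761, 655 and 869 in regular diet, 692 to 1422 (median 1051) in vehicle and 788 to 921 (median 880.1) in antibody mice, and its differences were 0.32 ± 0.17 (adjusted p = 0.128) and 0.09 ± 0.17 (adjusted p = 0.714). The vehicle difference passed with equal totals, at 0.94, and without vehicle mouse 1, at 0.43. Their shared kinase Ripk2 was the steadiest member in regular diet, at 366, 369, 336, 348 and 376. It stood at 428 to 743 (median 579) in vehicle and 479 to 655 (median 546) in antibody mice, every one of them above regular diet, and rose by 0.69 ± 0.14 (1.62-fold, adjusted p = 0.000506) and 0.65 ± 0.14 (1.57-fold, adjusted p = 0.0013). The calls of Nod2 and Ripk2 were lost in both comparisons under quantile normalization.

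Of the death genes, Mlkl (ENSMUSG00000012519, chr8:111311797-111338177, minus strand) rose in both groups, Ripk3 passed in vehicle, and Casp8, the protease that restrains necroptosis, did not pass. Mlkl stood at 251, 293, 207, 300.00 and 225 in regular diet, 691 to 1229 (median 898) in vehicle and 836 to 1166 (median 944) in antibody mice, without overlap, and rose by 1.90 ± 0.16 (3.74-fold, adjusted p = 4.08e-08) and 1.95 ± 0.16 (3.86-fold, adjusted p = 4.68e-08). Vehicle mice 1 and 2 had its highest values, whereas they were among the 3 lowest vehicle mice for Aim2 and Tlr13. Ripk3, which phosphorylates the Mlkl product, stood at 255, 104, 65.6, 86.7 and 73.3 in regular diet, 124 to 324 (median 218) in vehicle and 126 to 237 (median 173) in antibody mice. Regular diet mouse 1 lay within the CDA-HFD values, the vehicle difference was 0.99 ± 0.32 (1.99-fold, adjusted p = 0.0165), and the antibody difference was 0.74 ± 0.32 (adjusted p = 0.0794), which did not pass. Without that mouse the antibody difference passed, at 1.07, and with equal totals it passed at 1.18. The vehicle call was lost under quantile normalization (0.28) and without regular diet mouse 3 (0.83). Casp8 stood at 2400.1, 1618, 1538, 1349 and 1841 in regular diet, 1668 to 2879 (median 2045) in vehicle and 1781 to 2218 (median 1922) in antibody mice, and its differences were 0.25 ± 0.16 (adjusted p = 0.198) and 0.19 ± 0.16 (adjusted p = 0.382). It passed as higher with equal totals in vehicle (0.88, adjusted p = 6.05e-06) and antibody mice (0.63, adjusted p = 0.000294). In vehicle it also passed under quantile normalization (0.41, adjusted p = 0.0245) and without regular diet mouse 1 (0.37, adjusted p = 0.0324).

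The comparison of antibody with vehicle asks what the antibody did in mice with the same carcinogen and diet. No member passed after adjustment: limma called 0 of 37, the smallest adjusted p was 0.659, and 2 members had an unadjusted p under 0.05, where 7.47% of all genes did. The 2 groups of 6 overlapped for all 37 members; they did not for 0.322% of all genes. The difference lay below 0 for 29 members and above 0 for 8, with a median of -0.22 beside -0.05 for all genes, and the range was -0.71 (Tlr8) to 0.42 (Tlr12). With every library scaled to the same total, the median of all genes was -0.23. The members' -0.22 belongs to the deposited scaling, so it cannot be set beside that value. In this comparison the median difference was below 0 for markers of macrophages (-0.43), leukocytes (-0.47) and monocytes (-0.51), and above 0 for hepatocytes (0.74). No marker of these 4 lists passed by limma, with 0, 1, 1 and 2 at an unadjusted p under 0.05. Every tested marker of the other cell types lay below 0 as well, except Bst2 and Krt19. The part of the markers in the members' differences was not tested.

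The 5 members with the smallest p were Naip5, Aim2, Tlr1, Myd88 and Tlr12. Naip5 differed by -0.59 (95% interval -1.07 to -0.11, adjusted p = 0.659 by limma), with 406 to 902 in vehicle and 392 to 532 in antibody mice. Aim2 differed by -0.53 (interval -1.0001 to -0.07, adjusted p = 0.659 by limma). All 6 antibody mice lay below the vehicle mean for both genes, as they did for other members, Tlr1, Tlr13 and Nlrc4 among them. Vehicle mice 1, 2 and 5 lay below that mean too in each of these genes. For Aim2 they had 429, 358 and 412, beside 363 to 419 in antibody mice and 752, 892 and 851 in vehicle mice 3, 4 and 6. Tlr1 differed by -0.42 (interval -0.88 to 0.03, adjusted p = 0.659 by limma) and Myd88 by -0.26 (interval -0.55 to 0.04, adjusted p = 0.665 by limma). The number of members at an unadjusted p under 0.05 moved with single mice of both groups. It was 0 without vehicle mouse 3 or 4, 1 without vehicle mouse 6 or antibody mouse 3, and 4 without antibody mouse 1. Over all 18624 genes it was 1391 in the main fit and 741 and 680 without vehicle mouse 3 or 4. Leaving out vehicle mouse 6, antibody mouse 3 or antibody mouse 1 gave 758, 849 and 1450 of all genes. The library code block as a term gave 4 members and 2259 of all genes.

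The intervals, whose spread was estimated over all 17 libraries with regular diet among them, say how large a difference could have been missed. Their half-widths had a median of 0.47 on the log2 scale, from 0.25 (Irak1) to 2.07 (Tlr9). Irak1 differed by -0.0012 (interval -0.25 to 0.25), Mlkl by 0.04 (interval -0.28 to 0.37) and Naip2 by 0.05 (interval -0.27 to 0.38). For Tlr4 the interval ran from -1.49 to 0.23, and for Tlr8 from -2.34 to 0.91, intervals that hold both a 2-fold lower level and no difference.

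**Figure D3:**
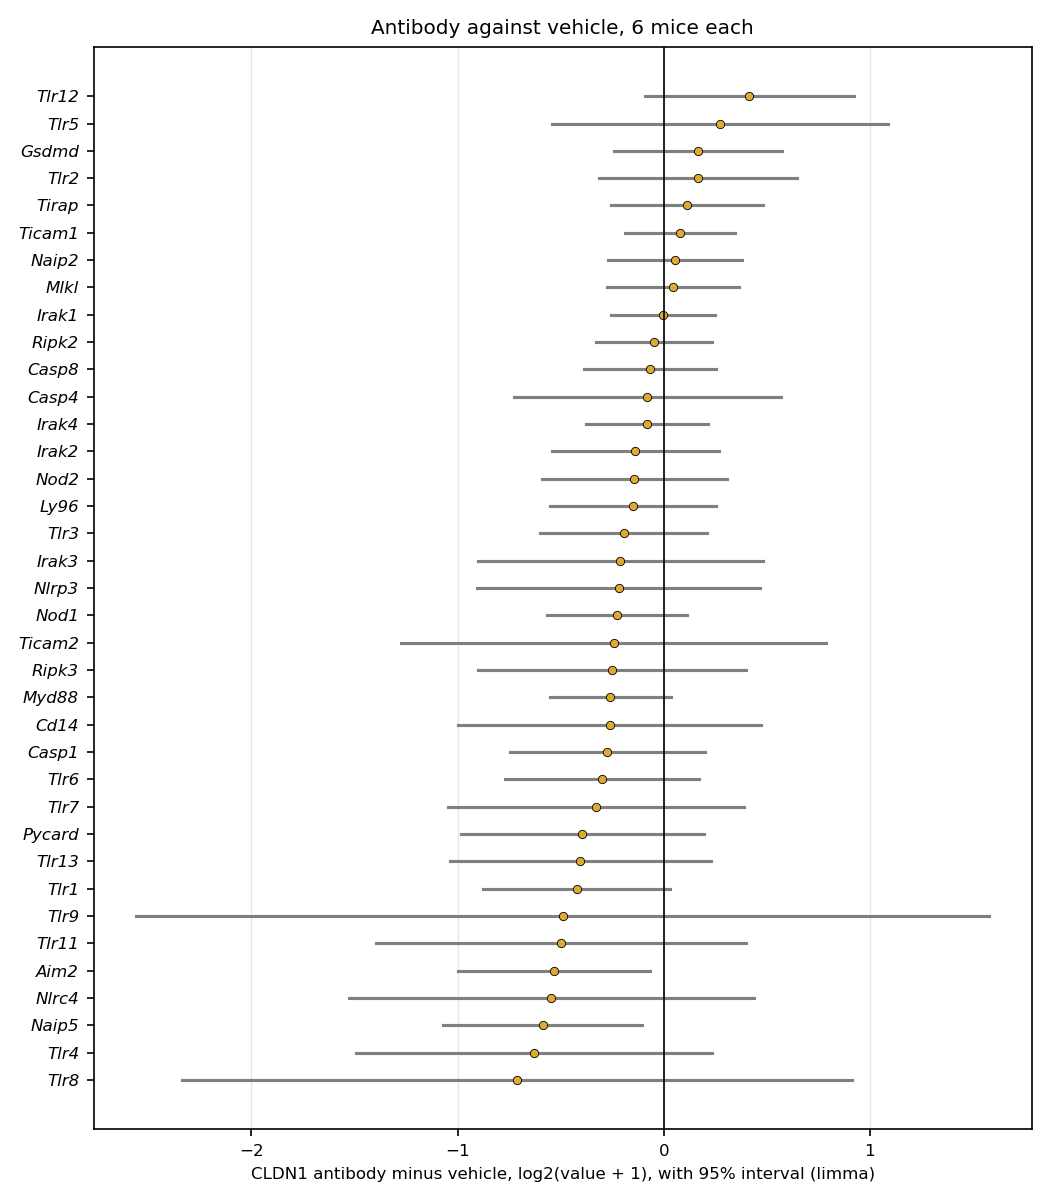
Antibody minus vehicle (6 mice in each group) for each of the 37 genes in log2(value + 1), as points with 95% intervals from the limma fit of all 17 libraries. Most points lie left of 0, and the intervals of Naip5 and Aim2 exclude 0 before adjustment.

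The spread between mice of a group was described but not tested. The median SD of log2 values over the members was 0.51 in regular diet, 0.41 in vehicle and 0.24 in antibody mice, and 26 of 37 members had a larger SD in vehicle than in antibody mice. All genes tested had medians of 0.50, 0.43 and 0.33, and 66.9% had the larger SD in vehicle, a share close to that of the members. Tlr13 shows the pattern, with vehicle mice 1 and 2 at 757 and 771, mouse 5 at 1163, and mice 3, 4 and 6 at 2051, 2166 and 3004. The mean log2 level of the 10 macrophage markers ran the same way, at 11.04, 11.5 and 11.7 in vehicle mice 1, 2 and 5 and 12.6, 12.4 and 12.6 in mice 3, 4 and 6, against 11.4 to 12.03 in antibody mice. The mean log2 hepatocyte marker level was 16.1 to 16.7 in vehicle mice 1, 2 and 5 and 14.6 to 15.4 in mice 3, 4 and 6.

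Each gene was also fitted on the macrophage marker level over the 12 CDA-HFD mice, with the group as a term and p-values adjusted over all genes tested. By limma 17 of 37 members had a positive slope, beside 19.1% of all genes, and 1 had a negative slope, beside 12.2%. With group means removed, the median Pearson's r was 0.64 over the members and 0.11 over all genes. The permutation test of r, adjusted over these 37 chosen members, called 15 positive and 1 negative. The lowest r of those 15 was 0.61, a value that 23 members and 23.5% of all genes reached. Tlr13 had r = 0.93 and Spearman's rho = 0.90 (two-sided permutation p = 0.00111 and 0.00788, adjusted limma p of the slope 0.000463, n = 12). Without the 2 mice farthest from the median, vehicle mice 3 and 6, its r was 0.92, and it was 0.96 within vehicle and 0.76 within antibody mice. Within the 6 mice coded 25 to 30 r was 0.95, and within those coded 36 to 42 it was 0.98. Nod1, which did not pass in the comparisons of groups, had r = 0.92 and rho = 0.89 (permutation p = 0.00281 and 0.012, adjusted limma p of the slope 0.00278, n = 12). Its r was 0.99 within vehicle and 0.17 within antibody mice, and 0.88 without vehicle mice 3 and 6. All 15 had r above 0.5 in both code blocks and kept their sign without these 2 mice, and 6 of them had r above 0.5 within both groups. Vehicle mouse 4, with a marker level of 12.4, was not left out. The first code block held vehicle mouse 3 and the second held vehicle mice 4 and 6. Leaving out 2 mice and splitting by code therefore could not remove the weight of these high mice.

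The negative member was Mlkl, with r = -0.76 and rho = -0.67 (permutation p = 0.0186 and 0.0587, adjusted limma p of the slope 0.0281, n = 12). It was -0.89 within vehicle, -0.16 within antibody mice and -0.69 without the 2 farthest mice, and -0.91 and -0.14 in the 2 code blocks. Gsdmd (r = -0.03, permutation p = 0.93; rho = -0.11, permutation p = 0.745) and Tlr12 (r = 0.07, permutation p = 0.804; rho = -0.21, permutation p = 0.537) had slopes that did not pass. Members and markers were read in the same libraries and share their scaling. With equal totals the limma slope called 27 members positive and 0 negative, beside 7575 and 1140 of the 18624 genes tested. The call of Mlkl was thus lost under that scaling, and positive slopes were more common among all genes too. The other tested measure, r, called 26 and 0.

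**Figure D4:**
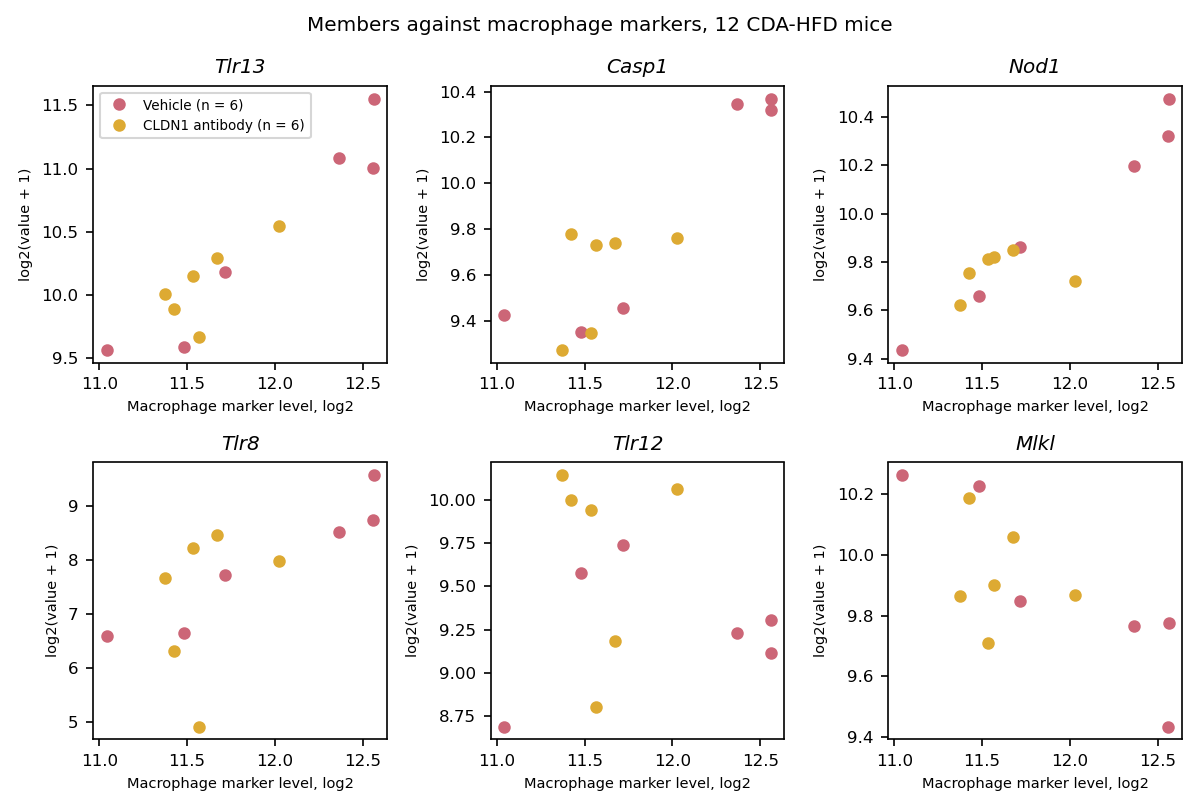
Log2(value + 1) of 6 members against the mean log2(value + 1) of 10 macrophage markers, 1 point per CDA-HFD mouse (6 vehicle, 6 antibody). Tlr13, Casp1 and Nod1 rise with the markers, mainly through vehicle mice 3, 4 and 6 near 12.4 to 12.6; Mlkl runs the other way, and Tlr12 has no clear slope.

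Genes that work around the members were read from lists chosen by function. Their counts stand beside shares called over all genes of 50.5% in vehicle and 38.9% in antibody mice, given above. Of 11 TLR accessory and trafficking genes, 7 rose and 2 fell in vehicle (median 1.31), and 6 rose and 2 fell in antibody mice. Ctss, the endosomal protease cathepsin S, rose by 4.11 on the log2 scale in vehicle and 3.62 in antibody mice. Cd180, a TLR4-like receptor, rose by 3.16 and 2.67, and the scavenger receptor Cd36 by 2.74 and 2.33. Lbp, the lipopolysaccharide-binding protein made by hepatocytes, fell by 1.10 and 0.93.

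Of 20 genes signalling to NF-kappaB and IRF, 7 rose and 3 fell in vehicle (median 0.28), and 7 rose and 5 fell in antibody mice. The 10 of 20 called in vehicle are a share like that of all genes. Relb rose by 2.64 in vehicle and 2.40 in antibody mice, Irf8, a myeloid transcription factor, by 2.29 and 1.86, and Nfkb2 by 1.63 and 1.54. Chuk, which encodes the kinase IKK-alpha, fell by 0.89 and 0.75, and the antibody call was lost without any one of regular diet mice 2 to 5 or antibody mouse 1. Of 13 brakes on the pathway, 8 rose and 1 fell in vehicle (median 0.97), and 6 rose and 0 fell in antibody mice. Il1rn, the interleukin-1 receptor antagonist, rose by 4.21 and 4.10, the deubiquitinase Tnfaip3 (A20) by 2.40 and 2.23, and Nfkbie by 2.26 and 2.08. Tollip fell by 0.40 in vehicle, and its antibody difference of -0.22 did not pass.

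Interleukin-1beta and interleukin-18 are the cytokines that inflammasomes mature. Of 11 interleukin-1 family outputs and receptors, 8 rose and 2 fell in vehicle (median 1.65), and 5 rose and 1 fell in antibody mice. The 1 gene that did not pass in vehicle was Il1b, named after its values were seen, with means of 278 in regular diet, 307 in vehicle and 247 in antibody mice. Il18, the other main substrate of caspase-1, fell by 0.49 in vehicle (671 against 473), and its antibody difference of -0.34 did not pass. The vehicle call of Il18 was lost without regular diet mouse 1 (adjusted p = 0.074) or any one of vehicle mice 3 to 6 (adjusted p = 0.0527 to 0.0747). The receptor subunit Il18rap rose by 3.60 and 2.95 (12.2-fold and 7.74-fold, and 6.73-fold and 4.28-fold without regular diet mouse 1) and its partner Il18r1 by 2.32 and 1.78. Il36g rose by 2.18 in vehicle (4.54-fold), with a highest mouse at 1413 and a median of 48.4, and by 2.61-fold without vehicle mouse 4 (adjusted p = 0.000556). Its antibody difference of 0.98 did not pass. Il1rap, the shared co-receptor, fell by 1.74 and 1.08.

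Of 19 other inflammasome and pyroptosis genes, 12 rose and 1 fell in vehicle (median 1.25), and 11 rose and 1 fell in antibody mice. Casp12, of the inflammatory caspase family, rose by 3.93 in both. Nlrp1b rose by 3.18 and 2.57 and the channel gene Panx1 by 3.15 and 2.75, while Nlrp6 fell by 1.77 and 1.01, with the antibody call lost without any one of regular diet mice 1, 3 and 5 and antibody mice 2 and 6. Of 19 other cell death genes, 6 rose and 4 fell in vehicle (median -0.01), and 5 rose and 2 fell in antibody mice. The 10 and 7 of 19 called are shares close to those of all genes. Zbp1, which can activate RIPK3, rose by 2.27 and 2.42, the death receptor Tnfrsf10b by 1.99 and 1.52, and Tnfrsf1b by 1.17 and 1.04. Cflar, which encodes the caspase-8 regulator cFLIP, fell by 0.81 and 0.68.

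Of 11 cytosolic nucleic acid sensors and lectins, 8 rose and 1 fell in vehicle (median 2.82), and 10 rose and 1 fell in antibody mice. The lectins led, with Clec4d at 6.91 and 6.66, Clec4e (Mincle) at 5.23 in both and Clec7a (Dectin-1) at 5.01 and 4.87. Mavs, the mitochondrial adaptor of RNA sensing, fell by 1.22 and 0.99. In antibody against vehicle, 0 genes of these 7 lists passed by limma, and 5 of them had an unadjusted p under 0.05.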

How the data were processed

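The deposited file holds 1 table of cuffnorm-normalized counts per gene, a signal that the authors made with Cufflinks 2.2.1 on mm10, per the submitters' processing notes and the table's own name. The aligner, the annotation, the use of strand and the scaling are not given in the sources used here. Depth was read from the spacing of low values: 97.7% to 98.2% of low values per library were whole multiples of 1 step within 0.05, but not every gene came out whole, so no count model was used. Fragments per library came to 38.6 ± 9.60 M (SD, n = 5) in regular diet, 48.5 ± 8.19 (n = 6) in vehicle and 41.6 ± 9.57 (n = 6) in antibody mice. The 18624 genes that reached 10 in 5 libraries were fitted as log2(value + 1) with limma 3.58.1 in R 4.3.3 (trended empirical Bayes, group only, two-sided), and p-values were adjusted by Benjamini-Hochberg over all of them. Deposited totals were compared by a two-sided exact permutation test: p was 0.00216 for vehicle and for antibody against regular diet (n = 6 and 5) and 0.136 for antibody against vehicle (n = 6 and 6). Correlations used 100000 permutations within groups. A limma slope on the marker level, adjusted over all genes tested, was added after seeing the data, as was leaving out each library for the list genes and for levels per kilobase. Tlr11 and Tlr12 were grouped with the endosomal receptors for the text, where the plan had them among the surface receptors. The labels give mouse numbers within each group, and separate mice were taken as the replicates. Values were given for members past the threshold, for the 5 smallest p-values where none passed, and for up to 3 genes of each list in its main direction and 1 in the other. The members and lists were chosen with earlier results of these data known. Promoter windows and synonyms came from RefSeq, and gene coordinates from GENCODE. Exonic overlap with another annotated gene affects 9 members: Tlr3, Myd88, Ticam2, Tirap, Irak1, Irak2, Irak3, Irak4 and Pycard. Alternatives covered pseudocount, filter, scaling, fit and each left-out library.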

Additional observations from a re-analysis of the deposited data

Results flagged for a closer look

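Of 111 groups of values (37 genes in 3 groups), 11 held a single mouse far from the others of its group, by the gap to its nearest neighbour relative to the whole range, and chance alone gives about 1 in 20. Regular diet mouse 1 had 5 of them: it was lowest for Tlr3 (233), Tlr9 (listed at 0), Tirap (838) and Irak1 (2982) and highest for Ticam1 (1218.5). Antibody mouse 1, the library with the fewest estimated fragments (27.7 M), was lowest for Tlr6 (118), Tlr9 (1.53) and Irak2 (1142). Vehicle mouse 1 was highest for Tirap (1113), regular diet mouse 4 lowest for Tlr12 (307) and antibody mouse 3 highest for Nlrp3 (114).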

How the results depend on the processing

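Over 21 alternatives (pseudocount 5 or 0.1, no filter or a minimum of 50, 3 scalings, only the groups compared, the replicate block, robust estimation and each of the left-out libraries), 21 of the 28 calls in vehicle against regular diet and 18 of the 26 in antibody against regular diet held throughout. Those lost somewhere were Ly96, Myd88, Nlrp3, Nod2, Ripk2, Ripk3 and Tirap for vehicle, and Irak2, Tlr8, Tlr11, Tlr12, Nlrp3, Nod2, Ripk2 and Tirap for antibody; the cause was not tested. Calls were gained as well. In vehicle Tlr9 was gained under 7 alternatives, Casp8 under 3, Nod1 and Irak2 (lower) under 2 each, and Tlr12, Ticam1, Irak4, Gsdmd and Irak1 (lower) under 1 each. In antibody mice Tlr4 was gained under 4, Tlr9, Ly96, Myd88 and Ripk3 under 2 each, and Ticam1, Casp8 and Irak1 (lower) under 1 each. With equal totals, 1 member was called lower in vehicle and 1 in antibody mice against regular diet, and 5 members had an unadjusted p under 0.05 in antibody against vehicle. That last count was 4 with only the groups compared and 4 with the library code block. Of all 18624 genes, 1744 were there with equal totals, 1667 with only the groups compared and 2259 with the library code block. By permutation of r, with equal totals 26 members were positive and 0 negative against the macrophage markers, and with leukocyte markers 2 were negative. The limma slope called 4 negative with leukocyte markers, beside 2450 of the 18624 genes tested. Leaving out each library in turn gave 23 to 27 members higher and 2 to 4 lower in vehicle against regular diet (4 without regular diet mouse 1), 21 to 25 and 2 to 4 in antibody against regular diet, and 0 called with 0 to 4 at an unadjusted p under 0.05 in antibody against vehicle. Among all 18624 genes the same fits gave 5145 to 5951 higher and 3337 to 4729 lower in vehicle. For antibody against regular diet they gave 4198 to 5142 and 2144 to 3886. For antibody against vehicle, 680 to 3179 genes had an unadjusted p under 0.05. Directions near 0 turned. In vehicle against regular diet, equal totals gave Irak1 0.42, Irak2 0.17 and Gsdmd 0.40 (adjusted p = 0.0401 by limma). Quantile normalization gave Ly96 -0.0488, Ticam1 -0.0372, Irak1 0.13, Irak4 -0.11 and Gsdmd 0.0135. Median ratio scaling gave Ticam1 -0.0266, and leaving out each library gave -0.0331 to 0.14 for Ticam1 and -0.33 to 0.0300 for Gsdmd. In antibody against regular diet, equal totals gave Irak1 0.24 and Gsdmd 0.38. Quantile normalization gave Ly96 -0.10, Irak1 0.0412, Irak4 -0.14 and Gsdmd 0.14, and leaving out each library gave -0.0043 to 0.19 for Irak4 and -0.17 to 0.20 for Gsdmd, both turning without regular diet mouse 1. Mouse numbers were not shown to pair the groups: same-numbered mice correlated from -0.34 to 0.66 over 16 pairs, and 1 of 6 vehicle mice correlated best with its own number. With the replicate block, 26 members were called higher and 2 lower in vehicle, 23 and 3 in antibody mice, and 0 in antibody against vehicle. Of all 18624 genes, 5393 and 3795 were then called in vehicle, 4408 and 2563 in antibody mice and 0 in antibody against vehicle. The members differed: Tlr9 was gained in both, Myd88 was lost in vehicle and Tlr11 in antibody mice. Some low values rested on few fragments: Tlr9 and Tlr8 in regular diet mouse 1 stood at 0 and 1. The part of depth in these values was not tested.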
